A study of Mus musculus with 2 samples.

Results

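Pafah1b3, Otub2, Selenop, Rgcc and Tifa were 5 of the 30905 genes listed in droplet single-cell libraries of germinal center B cells. They were chosen by their light zone gate minus dark zone gate differences in an earlier analysis of the same libraries, in which their RNA was among the most raised in the dark zone gate. That contrast is therefore described here without a test. Phases of the cell cycle, antibody isotypes and detection of the genes in the same cell did not directly enter the choice. The gates differed in phase and slightly in isotype, however, so the choice may enter these results in part.

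The study sorted germinal center B cells from spleens of 8-week-old C57BL/6J mice, an inbred strain, after immunization with SRBC (sheep red blood cells), and it holds 2 libraries of this 1 group. Both libraries carry the same genotype, treatment and age, and the labels name no other allele or agent. Nothing in the labels says whether they came from separate animals. The p-values of comparisons between 2 classes therefore rest only on how far the class difference varied between these libraries. That spread may be technical, and differences in level between the libraries are taken out by the block. Fits with additive or interaction terms also draw on the spread between classes of the same library. Expression was read as unique molecular identifiers (UMIs), tags that each mark 1 captured RNA molecule, from the 3′ ends of transcripts.

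Library 1 held 75121538 UMIs in 8765 barcodes and library 2 held 61874342 UMIs in 7868 barcodes. The barcodes used had 500 or more genes, 1000 or more UMIs and a mitochondrial share of no more than 20%. They numbered 5142 and 3526, at median depths of 8183.5 and 8243 UMIs. Of 12 germinal center B cell markers, all 12 had a UMI in more than 5% of kept barcodes of each library, among them Cd79a, a part of the B cell receptor complex, in 99.3% and 99.2%. Of 8 T cell markers, 5 and 7 had a UMI in libraries 1 and 2, summing to 1.60 and 3.13 CPM, and none in more than 5% of barcodes. Cd3e, Cd3g and Trbc2 were at 0 in library 1 and Cd8a in library 2. The libraries shared 9 cell barcode sequences. Levels are given as CPM, the gene's UMIs in a class scaled to 1000000 UMIs of that class, and are compared between classes for 1 gene at a time. No class in these libraries is known to lack these genes, so a background from free RNA could not be read.

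Germinal center B cells move between a dark zone, where they divide and mutate their antibody genes, and a light zone, where they compete for antigen and for help from T cells. The chemokine receptor CXCR4 marks dark zone cells, and CD83 and CD86 mark light zone cells, in flow cytometry. The 5 genes belong to no common pathway. PAFAH1B3 is a catalytic subunit of a platelet-activating factor acetylhydrolase, and OTUB2 is a deubiquitinase of the OTU family. SELENOP is a secreted selenoprotein that carries selenium in plasma, RGCC is a regulator of the cell cycle named for its response to complement, and TIFA is an adaptor that binds TRAF6 and activates NF-κB.

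All coordinates are of mm10, the genome build named in the submitters' processing notes, counted from 1, with gene bounds from GENCODE release M21. Pafah1b3 (ENSMUSG00000005447) lies on the minus strand at chr7:25295049-25297986, and Otub2 (ENSMUSG00000021203) on the plus strand at chr12:103388682-103406350. Selenop (ENSMUSG00000064373) lies on the plus strand at chr15:3268547-3280508 and overlaps Ccdc152 on the minus strand, which had 16 and 15 UMIs. Rgcc (ENSMUSG00000022018) lies on the minus strand at chr14:79288756-79301645. Tifa (ENSMUSG00000046688) lies on the plus strand at chr3:127789805-127832164 and overlaps Ap1ar and Gm43654 on the minus strand. Whether the counting used strand is not given in the sources used here, and without strand reads of overlapping genes cannot be told apart. All 5 are annotated as protein coding.

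Upstream sequences are shown for Otub2 and Rgcc, the pair most alike across zone gates and phases, and for Selenop, which ran the other way across phases. They are the 250 bases before a start site in RefSeq (GRCm38.p6), written 5′ to 3′ on the gene's strand. Where a gene had more than 1 window, the window with the highest coordinate is shown. Otub2 is at chr12:103388432-103388681 (plus strand), Rgcc at chr14:79301636-79301885 (minus strand) and Selenop at chr15:3270727-3270976 (plus strand). Capitals mark a CCAAT box, read as its reverse complement ATTGG, in Otub2 and a forkhead motif, GTAAACA, in Selenop.
Otub2: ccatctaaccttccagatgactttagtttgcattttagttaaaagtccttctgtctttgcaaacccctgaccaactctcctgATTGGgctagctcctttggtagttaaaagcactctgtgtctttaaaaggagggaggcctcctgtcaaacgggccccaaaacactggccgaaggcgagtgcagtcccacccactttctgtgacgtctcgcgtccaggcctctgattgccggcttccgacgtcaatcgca
Rgcc: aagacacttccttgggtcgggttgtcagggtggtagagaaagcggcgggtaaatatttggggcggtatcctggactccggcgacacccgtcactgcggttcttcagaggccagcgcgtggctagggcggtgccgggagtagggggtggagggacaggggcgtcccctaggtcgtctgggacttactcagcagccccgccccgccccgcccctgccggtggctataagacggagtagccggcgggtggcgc
Selenop: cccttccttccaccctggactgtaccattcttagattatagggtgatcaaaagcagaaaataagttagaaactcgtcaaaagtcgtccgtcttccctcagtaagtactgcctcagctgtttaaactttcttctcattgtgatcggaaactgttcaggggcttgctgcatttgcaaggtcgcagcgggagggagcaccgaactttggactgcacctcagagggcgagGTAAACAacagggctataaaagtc
Of the 5 genes, 4 had an entry in the table of start sites, with 9 windows among the 32851 of all genes, and Pafah1b3 is named only. Both strands were searched for 5 motifs. The CCAAT box (CCAAT) was in 33.8% of all windows, the forkhead motif in 3.17%, the cell cycle element CHR (TTTGAA or TTCGAA) in 17.1%, the E2F motif (TTTCCCGC or TTTGGCGC) in 1.30% and the TATA box (TATAAA) in 12.4%. The Otub2 window held the CCAAT box 168 bases before the start site. The Selenop window held the forkhead motif 24 bases before the start site and a TATA box between them. No other Selenop window held the forkhead motif. The Rgcc window held none of the 5 motifs. Of the other windows, 1 of Otub2 held the same CCAAT box, 1 of Tifa held CCAAT and TATAAA and 2 of Selenop held CHR. These are matches of letters and not shown to be bound.

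Zone gates were read from RNA. A random draw of 3400 UMIs from every cell set gates and phases at equal depth, which left 4677 and 3135 cells and put 465 and 391 shallower ones aside. Dark zone gate cells (759 and 490) showed Cxcr4 (1 UMI or more) without Cd83 and Cd86, and light zone gate cells (1671 and 1157) showed Cd83 or Cd86 without Cxcr4. Another 531 and 349 cells had both signals, and 1716 and 1139 cells had neither. Expressed genes can be missed at this depth, so gate and zone overlap only in part. Levels within classes used the full counts of these cells.

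The 5 genes differed in where cells outside the gates stood. Pafah1b3 was at 299.6 and 324 CPM in dark zone gate cells of libraries 1 and 2, at 243 and 269 CPM in cells with neither signal, at 226 and 269 CPM in cells with both and at 171 and 186 CPM in light zone gate cells. The dark and light zone gates lay above and below the other classes in both libraries, and the classes with neither and both signals overlapped. Otub2 was at 54.8 and 48.7 CPM in the dark zone gate, 41.9 and 40.6 CPM with neither signal, 36.9 and 29.0 CPM with both and 21.8 and 20.3 CPM in the light zone gate. For this gene no class overlapped its neighbor.

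Selenop put cells with both signals beside the dark zone gate. It stood at 48.0 and 39.6 CPM in the dark zone gate, 43.4 and 38.2 CPM with both signals, 36.4 and 30.2 CPM with neither and 23.5 and 21.1 CPM in the light zone gate. The dark zone gate and the class with both signals overlapped, and both lay above the class with neither. Rgcc was at 80.7 and 106.7 CPM in the dark zone gate, 74.1 and 95.4 CPM with neither signal, 52.8 and 65.3 CPM with both and 38.8 and 51.5 CPM in the light zone gate. Its dark zone gate and neither classes overlapped, and both lay above cells with both signals, the reverse of the order in Selenop. Tifa was at 9.58 and 13.3 CPM in the dark zone gate, 9.31 and 10.6 CPM with neither signal, 9.37 and 8.09 CPM with both and 5.10 and 5.29 CPM in the light zone gate. Its upper classes overlapped and the light zone gate lay below them. The light zone gate minus dark zone gate log2 differences, which chose the genes, were -1.31 for Otub2, -1.11 for Tifa, -1.06 for Rgcc, -0.99 for Selenop and -0.82 for Pafah1b3, while 13.9% of 10655 genes tested were called lower in the light zone gate.

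The gates differed in phase, with G2/M-like cells at 60.2% and 57.3% of the dark zone gate and 36.4% and 37.8% of the light zone gate, so the gate difference was read within each phase. Phase calls rest on scores of S phase genes and of G2/M phase genes, and cells low in both scores were called G1-like. Selenop differed between light and dark zone gates by -1.73 on the log2 scale in G1-like cells, -1.16 in S-like cells and -0.85 in G2/M-like cells. Tifa gave -1.83, -1.22 and -0.80, and Pafah1b3 gave -1.10, -0.86 and -0.72 in the same order. For Otub2 the values were -1.43, -1.16 and -1.11, and for Rgcc -1.49, -0.96 and -0.95. Each gene was lower in the light zone gate in every phase, with the widest gap in G1-like cells, the phase with the fewest cells and, for Tifa, 6 and 4 UMIs in the dark zone gate. The choice of genes used the gate difference in these libraries, so a lower value in each phase follows in part from it.

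**Figure D1:**
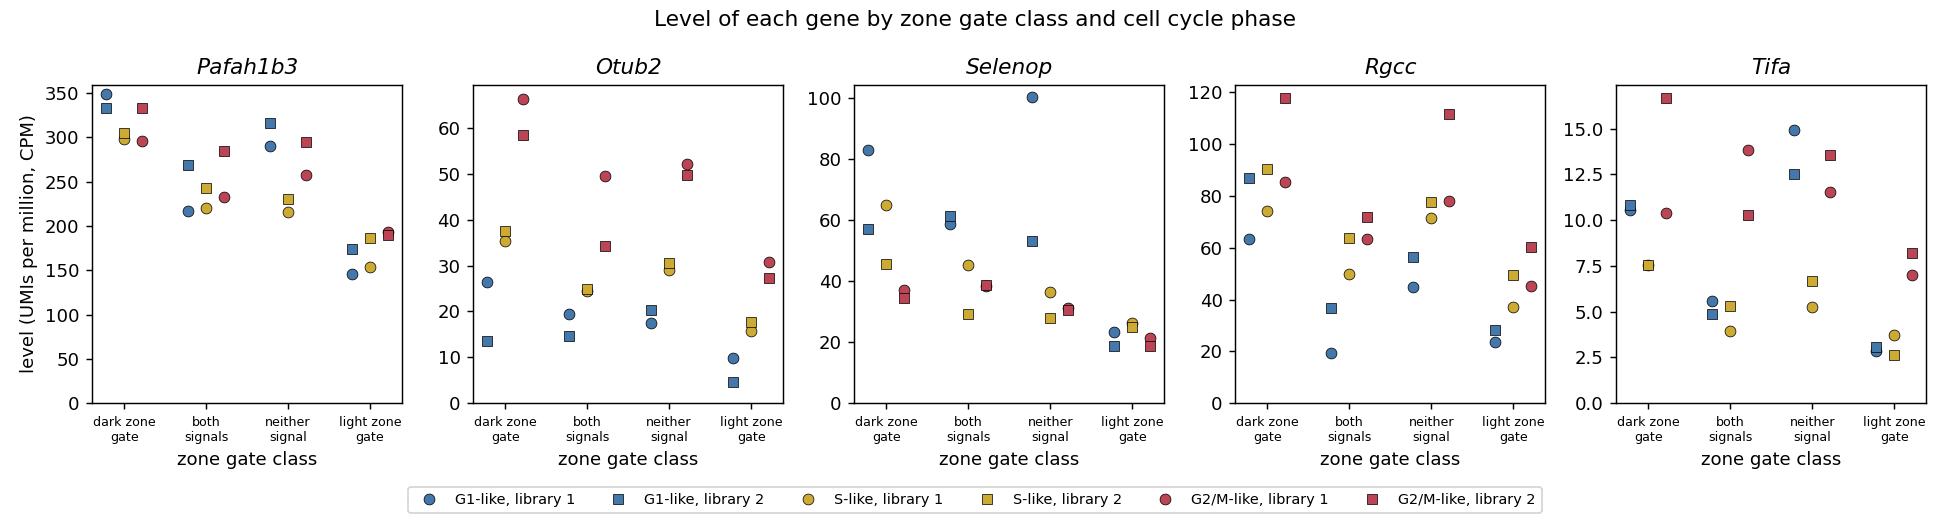
Level of each gene (vertical axis, CPM of summed UMIs, from 0) in the 4 zone gate classes (horizontal axis), with 1 point per phase (color) and library (circle, library 1; square, library 2). Otub2 and Rgcc climb from G1-like to G2/M-like cells inside every class, Selenop is highest in G1-like cells of every class but the light zone gate, and the single Selenop point at 100.1 CPM is the G1-like sum of library 1 that holds a barcode with macrophage markers.

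Across phases, 4 of the 5 genes were higher and 1, Selenop, was lower in G2/M-like cells (2232 and 1484) than in G1-like cells (818 and 487). Of 10959 genes tested, 27.2% were called higher and 25.7% lower, so a call in this comparison was common. Of 53 G2/M phase genes, 50 were called lower in the light zone gate by edgeR (39 called by DESeq2), against 13.9% of all genes. The choice of genes by the gate may therefore enter the phase differences in part. The G1-like cells were shallower, at median depths of 5346.5 and 5590 UMIs against 10525.5 and 10413.5 UMIs. All 5 genes passed the filter on low counts in every comparison.

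Otub2, which removes ubiquitin from target proteins, moved most. It stood at 14.7 and 9.73 CPM in G1-like cells, 24.7 and 26.7 CPM in S-like cells and 48.6 and 43.0 CPM in G2/M-like cells of libraries 1 and 2. The phases did not overlap. Otub2 was 3.77-fold higher in G2/M-like than in G1-like cells (log2 fold change 1.91 ± 0.12 SE, edgeR quasi-likelihood test, adjusted p = 7.2e-11, higher in 2 of 2 libraries). In S-like minus G1-like cells, where 29.1% of 10641 genes were called higher and 28.3% lower, Otub2 gave 1.06 ± 0.14 (edgeR adjusted p = 9e-13), and in G2/M-like minus S-like cells, a comparison added after the data were seen, 0.85 ± 0.06 (edgeR adjusted p = 8.9e-30). Of 11327 genes, 24.1% were called higher and 25.6% lower in G2/M-like than in S-like cells.

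Rgcc, whose product can bind the mitotic kinase CDK1, rose mainly at the step out of the G1-like state when all zone gate classes were pooled. Its level was 32.0 and 41.0 CPM in G1-like cells, 57.8 and 68.8 CPM in S-like cells and 69.0 and 93.6 CPM in G2/M-like cells. Library 2 was higher than library 1 in every phase, and within each library the order was the same. G2/M-like cells exceeded G1-like cells by 1.19 ± 0.08 on the log2 scale (edgeR adjusted p = 4.3e-10), of which S-like cells showed 0.85 ± 0.10 (edgeR adjusted p = 1.4e-17) over G1-like cells. From S-like to G2/M-like cells Rgcc rose by 0.34 ± 0.04 (edgeR adjusted p = 8.3e-13). Within the dark zone gate the first step was not clearly the larger. Rgcc was there at 63.4 and 86.7 CPM (G1-like), 74.3 and 90.3 CPM (S-like) and 85.3 and 117.9 CPM (G2/M-like). Within the light zone gate, at 23.8 and 28.4 CPM, 36.9 and 49.5 CPM and 45.3 and 60.3 CPM, the first step was the larger.

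Tifa, the TRAF6 adaptor, rose in G2/M-like cells over both other phases. It was at 6.67 and 5.90 CPM in G1-like cells, 4.89 and 5.32 CPM in S-like cells and 10.3 and 12.2 CPM in G2/M-like cells. G2/M-like cells lay above both other phases in both libraries. The difference from S-like cells was 1.12 ± 0.12 on the log2 scale (edgeR adjusted p = 7.3e-16) and that from G1-like cells 0.83 ± 0.19 (edgeR adjusted p = 0.001). S-like minus G1-like was -0.28 ± 0.25 and was not called (edgeR adjusted p = 0.34). With DESeq2 the G2/M-like minus G1-like difference of Tifa did not pass (adjusted p = 0.07). Ap1ar, which overlaps Tifa on the other strand, gave 0.20 ± 0.10 for G2/M-like minus G1-like cells (edgeR adjusted p = 0.1) and 0.09 ± 0.06 for G2/M-like minus S-like cells (edgeR adjusted p = 0.23).

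Pafah1b3 moved little. Its level was 209 and 229.8 CPM in G1-like cells, 204 and 226 CPM in S-like cells and 244 and 269 CPM in G2/M-like cells, so that G1-like and S-like cells overlapped and G2/M-like cells lay above them. G2/M-like cells were 1.20-fold above G1-like cells (log2 fold change 0.27 ± 0.06, edgeR adjusted p = 0.00084) and 1.19-fold above S-like cells (0.25 ± 0.03, edgeR adjusted p = 4e-17). S-like minus G1-like was 0.02 ± 0.07 (edgeR adjusted p = 0.83).

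Selenop ran the other way. It was at 51.3 and 34.5 CPM in G1-like cells, 36.9 and 29.3 CPM in S-like cells and 30.1 and 28.3 CPM in G2/M-like cells. Neighboring phases overlapped between libraries, and each library ran down in the same order. G2/M-like cells were 1.46-fold lower than G1-like cells (log2 fold change -0.54 ± 0.10, edgeR adjusted p = 0.00015, with -0.65 in library 1 and -0.23 in library 2). S-like cells were lower by -0.34 ± 0.10 (edgeR adjusted p = 0.002), and G2/M-like minus S-like was -0.20 ± 0.06 (edgeR adjusted p = 0.0039). Both of the smaller steps were lost with DESeq2 (adjusted p = 0.27 and 0.36), whereas the difference between G2/M-like and G1-like cells passed it (adjusted p = 0.042). The S-like minus G1-like call was also lost with thinned sums (edgeR adjusted p = 0.20) and at a mitochondrial limit of 10% (0.25). The G2/M-like minus S-like call was also lost in cells with neither zone signal (edgeR adjusted p = 0.44) and at a limit of 40% (0.21).

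Markers of macrophages, which also make SELENOP, moved with this result. The barcode with the most Selenop UMIs, in library 1, held 31 of them together with 189 UMIs of C1qa, C1qb, C1qc and Lyz2 and 0 of Cd79a, and it was G1-like with neither zone signal. C1qa stood at 21.6 and 4.72 CPM in G1-like cells against 0 and 0.0470 CPM in G2/M-like cells. The 14 macrophage markers summed to 1068 and 1030 CPM in G1-like cells, 437 and 448 CPM in S-like cells and 324 and 382 CPM in G2/M-like cells, of which Apoe alone made 899 and 996 CPM in G1-like cells. Of the 14, 5 in each library were at 0 in G2/M-like cells, and Mertk and Cd163 were at 0 in G1-like cells of library 2. Of all kept barcodes, 67 and 50 had no Cd79a, fewer than 3 germinal center markers or a UMI of C1qa, C1qb, C1qc, Lyz2, Cd3e or Cd3d. Without them, which left 4643 of 4677 and 3111 of 3135 thinned cells, Selenop was still lower in G2/M-like than in G1-like cells (-0.40, edgeR adjusted p = 0.0038). The S-like minus G1-like difference did not pass without them (-0.20, edgeR adjusted p = 0.087). The 67 and 50 barcodes held 3.24% and 1.24% of all Selenop UMIs.

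Since the dark zone gate held more G2/M-like cells, the phase differences were also fitted in cells with neither zone signal in the draw. The full counts of these cells can still hold zone transcripts outside the draw. The choice of genes may therefore still enter these differences. Otub2 gave 1.51 (edgeR adjusted p = 2.4e-09) and Rgcc 0.92 (edgeR adjusted p = 9.4e-08) for G2/M-like minus G1-like cells. Both kept their calls there. Selenop gave -1.35 (edgeR adjusted p = 5.2e-13), and -0.98 (edgeR adjusted p = 6.3e-08) when the barcodes named above were also left out. Pafah1b3 gave -0.10 (edgeR adjusted p = 0.42) and Tifa -0.15 (edgeR adjusted p = 0.77), so neither call held in these cells. With the zone gate as an additive term over all classes, Pafah1b3 gave 0.05 (edgeR adjusted p = 0.42) and Tifa 0.57 (edgeR adjusted p = 0.018).

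Among cells with neither zone signal, S-like cells were low in Tifa and Pafah1b3. Tifa was at 14.9 and 12.5 CPM in G1-like, 5.26 and 6.67 CPM in S-like and 11.5 and 13.6 CPM in G2/M-like cells of this class, with 17 and 8 UMIs behind the first pair. S-like cells lay below both other phases. Tifa gave 1.07 for G2/M-like minus S-like cells (edgeR adjusted p = 9.3e-08) and -1.19 for S-like minus G1-like cells (edgeR adjusted p = 0.016). Pafah1b3 was at 289.7 and 316 CPM in G1-like, 215 and 230.2 CPM in S-like and 257 and 295 CPM in G2/M-like cells, and its S-like minus G1-like difference was -0.38 (edgeR adjusted p = 0.0001). Over all classes neither gene passed the S-like minus G1-like test. In the light zone gate Pafah1b3 was slightly higher in S-like cells (154 and 186 CPM) than in G1-like cells (145 and 174 CPM).

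**Figure D2:**
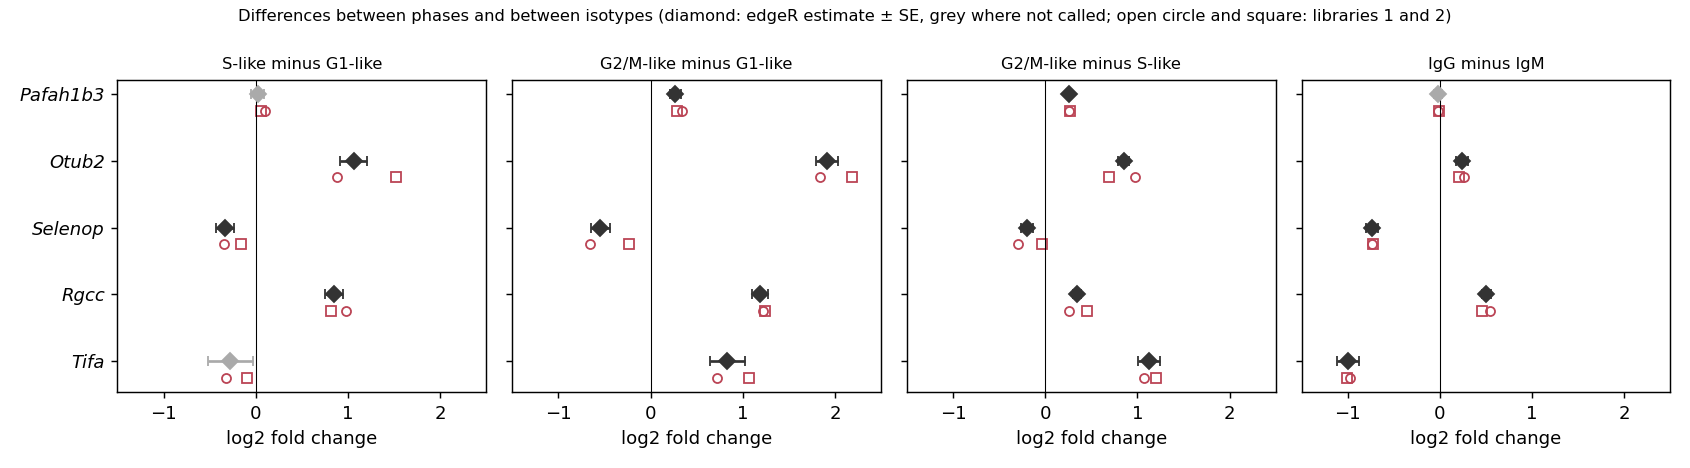
Log2 fold changes (horizontal axis) of the 5 genes between phases and between isotypes, from the edgeR fit (diamond with SE bars, black where the adjusted p is below 0.05 and grey otherwise) and in each library alone (open circle, library 1; open square, library 2). Otub2, Rgcc and Tifa lie right of 0 for G2/M-like minus G1-like cells and Selenop lies left, whereas for IgG minus IgM cells Tifa and Selenop lie left of 0 and Rgcc and Otub2 right.

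IgG and IgM cells were told apart by their heavy chain constant region UMIs, with 5 or more of them, of which 80% or more came from Ighg genes (IgG) or from Ighm together with Ighd (IgM). IgG cells have switched their antibody class and IgM cells have not. The 2192 and 1437 IgG cells and the 1775 and 1323 IgM cells had like depths, at medians of 8313.5 and 8625 UMIs against 8330 and 8520 UMIs. Of the 5 genes, 2 were lower, 2 higher and 1 not called in IgG cells. Calls were rarer here, at 5.87% higher and 8.17% lower of 11231 genes tested.

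Tifa showed the widest difference. It stood at 5.68 and 6.28 CPM in IgG cells and 11.1 and 12.5 CPM in IgM cells of libraries 1 and 2, and the isotypes did not overlap. Tifa was 1.99-fold lower in IgG cells (log2 fold change -0.99 ± 0.12, edgeR adjusted p = 1.7e-12, lower in 2 of 2 libraries, at -0.98 and -1.0). In thinned cells a Tifa UMI was found in 1.78% and 1.52% of IgG cells and in 3.26% and 3.73% of IgM cells (thinning left out 168 and 122 IgG and 119 and 116 IgM cells), and unthinned in 5.83% and 6.77% against 10.5% and 11.4%. The overlapping gene Ap1ar gave -0.07 ± 0.07 (edgeR adjusted p = 0.58).

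The Tifa difference was present in every zone gate class and phase. Within dark zone gate cells it was at 5.51 and 8.46 CPM in IgG and 15.6 and 20.8 CPM in IgM cells, and within light zone gate cells at 4.09 and 3.78 CPM in IgG and 6.64 and 7.43 CPM in IgM cells. In G2/M-like cells, where Tifa was highest, it was at 8.03 and 8.48 CPM in IgG and 14.1 and 16.8 CPM in IgM cells. No class or phase had a library in which IgG cells were higher. Among IgG cells, those with Ighg1 held Tifa at 5.10 and 5.96 CPM and those with Ighg2b (208 and 147 cells) at 11.1 and 10.4 CPM, beside the IgM level, but the Ighg2b values rest on 29 and 19 UMIs and were not tested.

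Selenop was also lower in IgG cells. It was at 25.9 and 21.9 CPM in IgG and 42.8 and 35.8 CPM in IgM cells, without overlap. The difference was 1.67-fold (log2 fold change -0.74 ± 0.07, edgeR adjusted p = 9.7e-19, with -0.74 and -0.72 in the libraries). A Selenop UMI was found in 7.95% and 6.77% of thinned IgG cells and 14.7% and 12.5% of thinned IgM cells, and unthinned in 19.2% and 17.3% against 28.9% and 26.8%. The 14 macrophage markers summed to 378 and 381 CPM in IgG and 498 and 589 CPM in IgM cells, mostly Apoe, with 5 and 2 of the 14 at 0 in IgG and 2 and 4 at 0 in IgM cells, and C1qa was at 0 and 0.971 CPM in IgG and 0.194 and 0.128 CPM in IgM cells. Without the barcodes that lacked germinal center B cell markers or carried macrophage or T cell markers the difference was as large (-0.74, edgeR adjusted p = 7.5e-26).

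Selenop and Tifa thus shared a direction between isotypes, and Rgcc went against them. Rgcc stood at 72.6 and 88.1 CPM in IgG and 49.1 and 63.5 CPM in IgM cells, higher in IgG cells within each library. The difference was 1.42-fold (log2 fold change 0.50 ± 0.05, edgeR adjusted p = 4.9e-16). By phase, Rgcc was at 39.1 and 57.9 CPM in G1-like IgG cells against 20.5 and 27.8 CPM in G1-like IgM cells, and at 82.2 and 108.1 CPM against 55.4 and 76.0 CPM in G2/M-like cells. IgG cells were higher in every phase of both libraries, and in every zone gate class except the one with both signals in library 2, at 58.2 and 58.9 CPM.

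Otub2 and Pafah1b3 differed least between isotypes. Otub2 was at 40.8 and 36.8 CPM in IgG and 33.6 and 31.4 CPM in IgM cells, a difference of 0.24 ± 0.06 on the log2 scale (edgeR adjusted p = 0.0035). The Otub2 call was lost with DESeq2 (adjusted p = 0.83), in cells with neither zone signal (edgeR adjusted p = 0.45), with thinned counts (0.43), at a mitochondrial limit of 10% (0.14) and at a share limit of 95% (0.074), with log2 differences of 0.17 to 0.23 in these fits. Pafah1b3 was at 223 and 247 CPM in IgG and 224 and 246 CPM in IgM cells, and its difference of -0.02 ± 0.04 (edgeR adjusted p = 0.8) had an approximate 95% interval of -0.10 to 0.05. At a mitochondrial limit of 40% Pafah1b3 was called lower in IgG cells (-0.09, edgeR adjusted p = 0.0058).

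In both libraries IgG cells held slightly more cells of the dark zone gate and of the G2/M-like phase. Dark zone gate cells made up 17.9% and 16.1% of IgG and 15.2% and 14.5% of IgM cells, and G2/M-like cells made up 50.1% and 49.3% against 46.2% and 45.6%. Of 53 G2/M phase genes, 15 were called higher in IgG cells and 0 lower (4 called by DESeq2), against 5.87% and 8.17% of all genes. Their median log2 difference was 0.10 against 0.01 for all genes. With phase as an additive term Tifa gave -1.0, Selenop -0.72, Rgcc 0.49 and Otub2 0.19, each past the edgeR test. Without the library as a block, of these genes Tifa alone passed (edgeR adjusted p = 0.03, against 0.078 for Selenop, 0.26 for Rgcc and 0.64 for Otub2).

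Whether the G2/M-like minus G1-like difference itself changed with isotype was asked with an interaction term. Of the 5 genes 0 passed the edgeR test and 1, Rgcc, had an unadjusted p below 0.05 (-0.43 ± 0.21, adjusted p = 0.77), while 0.0394% of 10157 genes were called. The other adjusted p-values were at least 0.89. The standard errors, from 0.11 for Pafah1b3 to 0.47 for Tifa on the log2 scale, leave sizeable interactions undetectable at this depth.

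**Figure D3:**
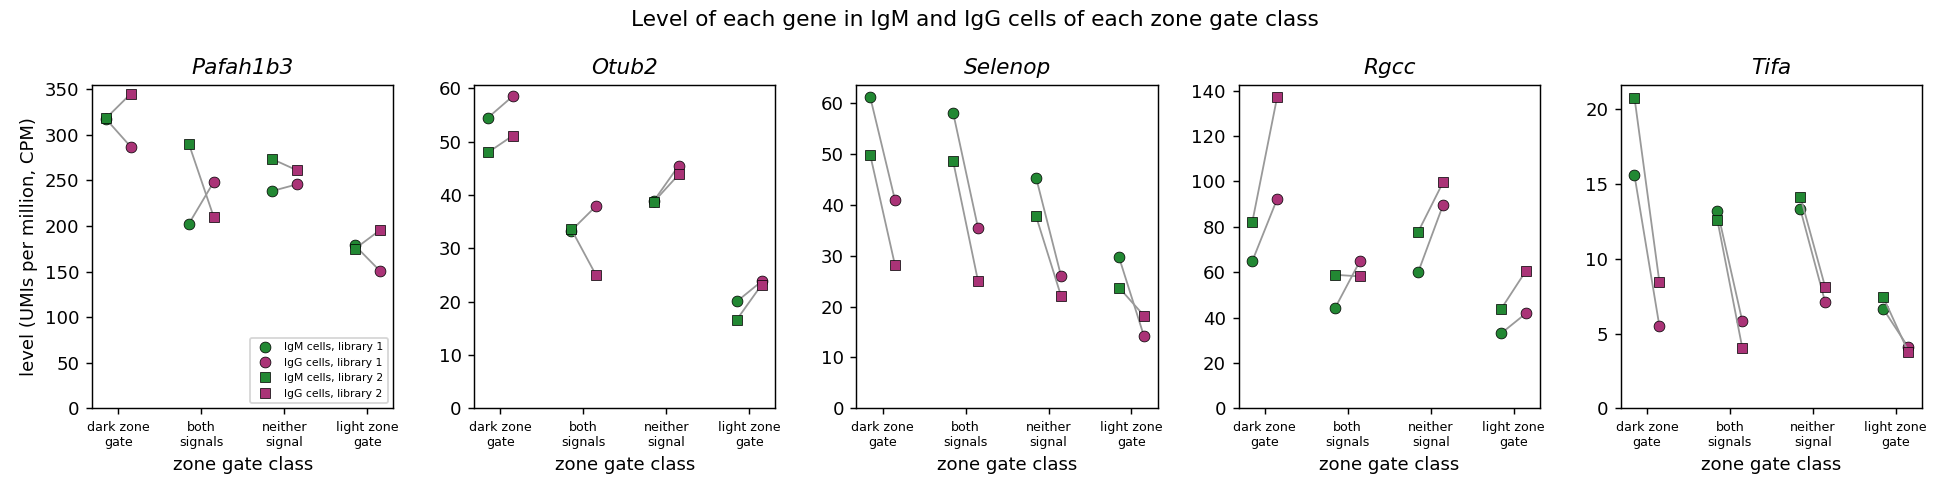
Level of each gene (vertical axis, CPM of summed UMIs, from 0) in IgM cells (green) and IgG cells (purple) of each zone gate class (horizontal axis), with lines joining the isotypes of 1 library (circle, library 1; square, library 2). All 8 lines of Tifa and of Selenop fall from IgM to IgG cells, those of Rgcc rise except for library 2 in the class with both signals, and those of Pafah1b3 run in both directions.

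Detection in the same cell was compared with the product of the single shares in cells thinned to 3400 UMIs, so that depth was equal. Pafah1b3 had a UMI in 46.3% and 50.1% of thinned cells, Rgcc in 12.96% and 17.5%, Otub2 in 11.2% and 9.28%, Selenop in 10.9% and 9.73% and Tifa in 2.33% and 2.39%. Unthinned, the shares were 70.9% and 73.4%, 30.9% and 35.8%, 29.0% and 27.0%, 24.0% and 22.1%, and 7.68% and 8.68%. All 5 genes were chosen for being high in the same gate, so ratios above 1 over pooled gates follow in part from the choice and are given as a description. All 10 pairs of genes were found together more often than the product gives in both libraries, with a median ratio of 1.32 in library 1 and 1.21 in library 2, although Otub2 and Tifa in library 2, at 7 cells against 6.96, barely did. Cells with no UMI of any of the 5 genes made up 40.3% and 37.3%, those with 3 or more made up 3.68% and 3.76%, and no cell had all 5. Within phases the median ratio was 1.47 and 1.69 in G1-like, 1.30 and 1.24 in S-like and 1.24 and 1.16 in G2/M-like cells. Of the 10 pairs, 9 and 10 were above 1 in G1-like, 8 and 9 in S-like and 9 and 8 in G2/M-like cells. The G1-like ratios of pairs with Tifa rest on 0 to 9 cells, with Otub2 and Tifa in 0 cells of library 1 and Selenop and Tifa at 4.59 from 5 cells of library 2.

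Pairs differed in how far they went beyond the product. Pafah1b3 and Rgcc, the best sampled pair, were both detected in 366 and 371 cells, 1.30 and 1.35 times the product. Selenop and Tifa were both detected in only 19 and 16 cells, at ratios of 1.60 and 2.19, and Rgcc and Tifa in 20 and 24 cells, at 1.42 and 1.83. Otub2 gave ratios near 1 with Rgcc (1.05 and 1.14) and with Tifa (1.15 and 1.01), although all of these genes rose in G2/M-like cells. Within cells with neither zone signal in the draw, 9 and 5 of the 10 pairs were above 1, with median ratios of 1.12 and 1.10. Zone transcripts outside the draw can remain in these cells, so the choice of genes may still enter these ratios.

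**Figure D4:**
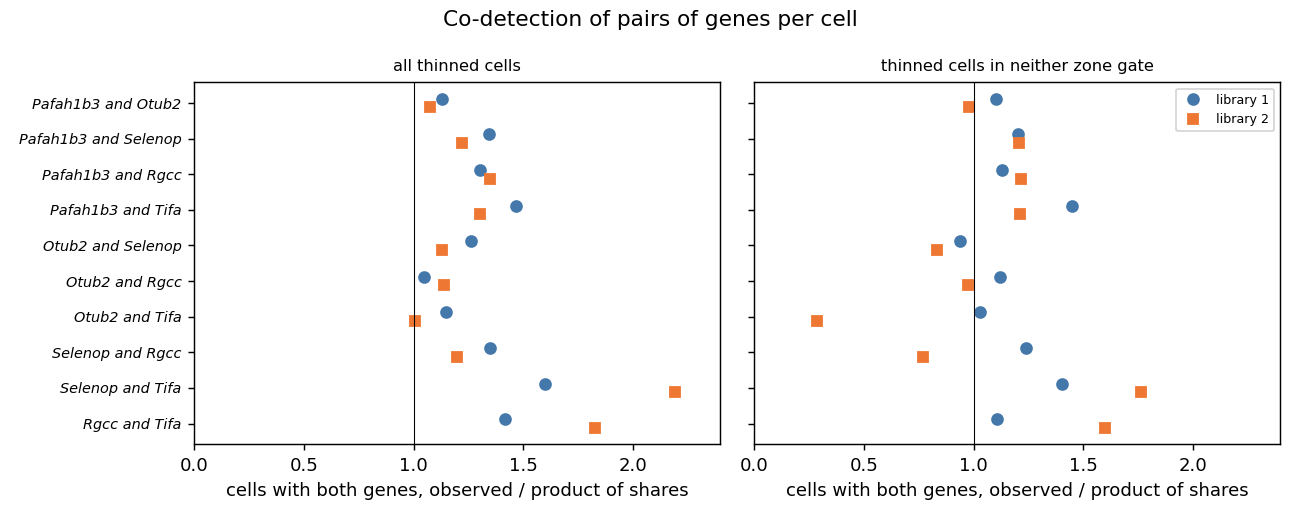
Ratio of observed cells with both genes to the product of the single shares (horizontal axis) for the 10 pairs (vertical axis), in all thinned cells on the left and in thinned cells with neither zone signal on the right, per library; the line marks a ratio of 1. All points on the left lie above 1, and on the right 1 pair of library 1 and 5 pairs of library 2 lie below it.

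Likeness of pattern was measured as Pearson's r of log2 CPM over 24 sums (2 libraries, 4 zone gate classes and 3 phases), centered within library, as a description over sums that share libraries and over genes that the gate chose. Otub2 and Rgcc were most alike at 0.84, followed by Pafah1b3 and Tifa at 0.78 and Pafah1b3 and Selenop at 0.72. Selenop was unlike Otub2 (0.05) and Rgcc (0.15). Tifa had few UMIs in several sums, such as 4 and 2 in G1-like cells with both signals, so its r values are uncertain. Among 9893 genes the patterns nearest to Otub2 were those of Hmces, a sensor of abasic sites in DNA (0.93), the nucleoside kinase gene Dck (0.93) and the chromatin remodeler gene Smarca4 (0.93). Nearest to Rgcc were Glrx3 (0.95), the topoisomerase gene Top1 (0.94) and Pou2af1, a B cell coactivator (0.93). Nearest to Pafah1b3 were Sh2b2 (0.92), Scaf11 (0.88) and Txndc11 (0.87). Tifa had Rrm2b, a ribonucleotide reductase subunit gene (0.84), Fcho1 (0.84) and Pou2f1 (0.81), and Selenop had Arl5c (0.85), the ceramide kinase gene Cerk (0.84) and the heparanase gene Hpse (0.83).

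Barcodes were also split by mitochondrial share. Rgcc was at 84.9 and 100.5 CPM in barcodes with up to 10% mitochondrial UMIs (1488 and 1186, median depths 15933.5 and 15613.5 UMIs) and at 37.7 and 52.7 CPM in barcodes with 10% to 20% (3654 and 2340, median depths 6952.5 and 6722 UMIs). The strata did not overlap. Tifa ran the same way, at 9.66 and 10.2 CPM against 6.12 and 7.41 CPM, whereas Otub2 was lower in the first stratum, at 30.9 and 31.0 CPM against 42.9 and 37.5 CPM. Pafah1b3 and Selenop overlapped between strata. The part of mitochondrial share in the phase and isotype results was not tested apart from limits of 10% and 40%, under which the Tifa, Selenop and Rgcc isotype calls passed. The Selenop S-like minus G1-like call and the Otub2 isotype call were lost at 10%, and the Selenop G2/M-like minus S-like call at 40%.

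Relatives of the 5 genes were read from fixed lists, drawn up when results of these libraries were known. In IgG minus IgM cells, where Tifa and Selenop fell, none of 18 tested genes of TIFA and TRAF6 signalling was called by edgeR (2 at an unadjusted p below 0.05, 0 by DESeq2), and their median log2 difference was 0.02 against 0.01 for all genes. Of 23 selenoprotein and selenium handling genes, 3 were called higher and 1 lower by edgeR and 0 by DESeq2, with Lrp8, a receptor for SELENOP, at 0.78 and Txnrd1, a thioredoxin reductase, at 0.22. Selenof, a selenoprotein of the endoplasmic reticulum, was lower at -0.16. The list median was -0.01. Of 13 OTU deubiquitinases and 11 genes of the acetylhydrolase complex and its partners, edgeR called 0 and 0 (0 and 2 at an unadjusted p below 0.05, 0 and 0 by DESeq2), with medians of 0.05 and 0.02. Of 9 complement regulators and receptors, 0 were called higher and 3 lower by edgeR (1 by DESeq2), with Cd55 at -1.32 and Cfp at -0.54 and a list median of 0.05, while 8.17% of all genes were called lower.

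For G2/M-like minus G1-like cells, where 27.2% of all genes were called higher and 25.7% lower, the lists split in direction. DESeq2 called fewer of their genes than edgeR, at 1 against 6 of the OTU deubiquitinases, 9 against 17 of the selenoprotein genes, 3 against 10 of TIFA and TRAF6 signalling and 2 against 7 of the acetylhydrolase list, and 5 against 5 of the complement list. Among OTU deubiquitinases 3 of 13 were called higher and 3 lower, with a median of 0.08 against -0.01 for all genes, and among those called Otud6b (0.61) was highest and Tnfaip3, which encodes the NF-κB inhibitor A20, lowest (-0.82). Among selenoprotein genes 11 of 23 were called higher and 6 lower, with a median of 0.14, led by Selenoh (1.82) and Lrp8 (1.40), while Selenop itself fell. Lrp8 and Selenoh also rose in S-like over G1-like cells, by 2.30 and 1.60.

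Of 18 genes of TIFA and TRAF6 signalling, 3 were called higher and 7 lower in G2/M-like than in G1-like cells, with a median of -0.08. Ube2n, the ubiquitin conjugating enzyme that works with TRAF6, was higher (0.49), and Rnf31, a subunit of the linear ubiquitin ligase, was lower (-0.68). Of 12 genes of the acetylhydrolase list, 4 were called higher and 3 lower, with a median of -0.08. Nde1, a dynein partner that works in mitosis, rose by 1.46 and Pafah1b2, the other catalytic subunit of the acetylhydrolase, by 0.53. Lpcat2, which makes platelet-activating factor, fell by 2.61. Of 8 complement regulators and receptors, 1 rose and 4 fell, with a median of -0.82, among them Cfp, properdin (-1.58), and Cd55, an inhibitor of complement (-1.41).

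Between the gates, where 29.4% of genes were called, the relatives were called in both directions. Of 13 OTU deubiquitinases 2 were called lower in the light zone gate, Vcpip1 at -0.21 and Zranb1 at -0.20, while 2 were higher, led by Tnfaip3 at 1.18. Of 23 selenoprotein genes 4 were called lower and 3 higher, with Selenoh at -0.29 and Gpx4, which clears lipid peroxides, at -0.26. Of 18 TIFA and TRAF6 signalling genes 1, Map3k7, the kinase TAK1, was lower at -0.38, and 4 were higher, led by Traf3 at 0.44. DESeq2 called 0, 2 and 0 genes of these lists, against 4, 7 and 5 by edgeR. List medians were -0.06, 0.02 and 0.01 against -0.0023 for all genes. Of 16 other dark zone genes, picked for that zone and so not independent of it, 15 were called lower in the light zone gate, with Lig4, a DNA ligase, at -1.0 and Gcsam, a germinal center adaptor, at -0.97, and Ung, which removes uracil from DNA, was higher at 0.40.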

How the data were processed

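RNA of 2 libraries of sorted germinal center B cells was read with the 10x 3′ version 3 kit, per the labels' protocols. The deposited counts of UMIs per gene and barcode, not normalized, carry Cell Ranger 3.0.2 as their software per the file headers, with mm10 named in the submitters' processing notes; its other settings are not given in the sources used here. The 5 genes, the gene lists and the tests were chosen with earlier results of these data known. Named besides the 5 genes are, from each list and comparison, up to 2 called genes with the largest log2 fold change in each direction, and the 3 genes most like each of the 5.

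Counts were summed per library and class and tested with edgeR 4.0.16 (quasi-likelihood, filterByExpr, TMM, library as a block, 4 sums per comparison with 1 residual degree of freedom, dispersion shared across genes, calls at a Benjamini-Hochberg adjusted p below 0.05). The block pairs classes read from the same library. Fits with additive or interaction terms used more sums, split further by zone gate, phase or isotype. Classes of the same library, which are not replicates, supplied residual degrees of freedom there. Phases came from scanpy 1.11.5 scores over 42 S phase and 53 G2/M phase genes on thinned counts: 13.6% and 12.2% of cells lay within 0.05 of a boundary, and 90.8% and 91.8% had the same phase unthinned. Scrublet called 0 and 0 doublets, so its calls were not used and doublets were kept; an alternative left out the highest 6% of scores (308 and 200 barcodes). Tested on simulated counts for G2/M-like minus G1-like cells (10959 genes), the fit recovered 16% of 1.25-fold, 56% of 1.5-fold, 75% of 2-fold and 100% of 3-fold changes, with 10 false calls. The simulation gave every gene the same set dispersion and no library effect, so these values do not measure the error rate in the real counts. Alternatives were DESeq2 1.42.0, RLE size factors, no filter, no block, other limits, thinned sums, germinal center B-like barcodes, cells in neither gate and additive terms; 3 choices were added after the data were seen, namely germinal center B-like cells in neither gate, the gate as a term in germinal center B-like barcodes and the G2/M-like minus S-like comparison.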

Additional observations from a re-analysis of the deposited data

Results flagged for a closer look

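The G2/M-like minus G1-like difference of Pafah1b3 had opposite signs between zone gate classes in both libraries, and this difference between classes was not tested. Pafah1b3 gave log2 differences of -0.24 in library 1 and -0.0066 in library 2 within the dark zone gate, and -0.17 and -0.10 in cells with neither zone signal. In the light zone gate they were 0.41 and 0.12, and in cells with both signals 0.10 and 0.073.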

How the results depend on the processing

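Counts of genes called moved by over 1.5 times as follows. Light zone gate minus dark zone gate called 3129 genes, against 819 with DESeq2, 1517 with thinned sums, and 515, 1295 and 1743 within G1-like, S-like and G2/M-like cells. G2/M-like minus G1-like called 5795, against 3116 with DESeq2, 3608 in cells with neither zone signal and 3569 in germinal center B-like cells among them. S-like minus G1-like called 6104, against 3116 with DESeq2, 3957 with thinned sums and 3988 in those germinal center B-like cells. G2/M-like minus S-like called 5633, against 2188 with DESeq2, 3529 at a mitochondrial limit of 10% and 3351 with thinned sums. IgG minus IgM called 1577, against 274 with DESeq2, 515 in cells with neither signal, 895 with thinned sums and 3133 at a limit of 40%. Without the replicate block by library the counts fell to 360, 3683, 1325 and 92 for gates, G2/M-like minus G1-like, G2/M-like minus S-like and isotypes, and calls were lost for Pafah1b3 in G2/M-like minus G1-like (adjusted p = 0.14) and G2/M-like minus S-like cells (0.15), for Rgcc in G2/M-like minus S-like cells (0.16) and for Selenop in S-like minus G1-like (0.18) and G2/M-like minus S-like cells (0.40), beside the isotype calls named in the results. The cause was not tested. In cells with neither signal the sign turned for Pafah1b3 (-0.10, and -0.16 in germinal center B-like ones) and Tifa (-0.15) in G2/M-like minus G1-like, and for Pafah1b3 in S-like minus G1-like (-0.38 and -0.43). Tifa also lost its G2/M-like minus G1-like call with DESeq2 (adjusted p = 0.07) and thinned sums (0.082). The mean median ratio of co-detection was 1.27, against 1.40 unthinned and 1.58 in G1-like cells. Values of single libraries have no test, since no residual degrees of freedom remain, and no counts were computed from them.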
